A study of Rattus norvegicus with 2 samples.

Results

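The genes described here encode membrane transporters for glucose and related sugars (Slc2 family), for lactate, pyruvate and other monocarboxylates (Slc16) and for amino acids (Slc1, Slc7 and Slc38). They were chosen by name alone, as every gene on the array whose deposited symbol is Slc1a, Slc2a, Slc7a, Slc16a or Slc38a followed by a number. The rule found 57 gene names among the 26328 gene and target names of the array: 7 of Slc1, 12 of Slc2, 15 of Slc7, 14 of Slc16 and 9 of Slc38. RNA came from the whole hypothalamus of Wistar Kyoto rats aged 9 weeks, fed and watered freely. Equal amounts of RNA (100 ng per rat) from 5 males were pooled into 1 sample and from 5 females into another, and 150 ng of each pool was labelled with the dye Cy3. Each pool went on 1 Agilent 1-colour array, both on 1 slide, so a difference between pools has no replicate check and no test was possible. The study asks how gene expression of the sexes differs in brain centres of cardiovascular control. The stage of the oestrous cycle of the females is not given in the sources used here.

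Neurons and glia depend on these carriers for fuel and for transmitter recycling. Glucose crosses the blood-brain barrier through the Slc2 carrier of endothelial cells and enters neurons through another, while Slc16 carriers pass lactate between cells with a proton. Astrocytes clear synaptic glutamate through Slc1 carriers, turn it into glutamine and release that through Slc38 carriers of the system N type, and neurons take it up through system A carriers. Slc7 carriers exchange cationic, large neutral or sulphur amino acids, many of them as light chains joined to a heavy chain of the Slc3 family.

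Each gene was read by 60-base probes, 69 in all on 132 spots, and the sequences shown are those of the deposited design, written 5′ to 3′ for the genes the comparison turns on. Slc38a8 had the largest difference among genes measured in both pools, Slc2a7 was measured in the female pool only, Slc2a8 had the largest difference toward the male pool, and Slc1a2, the main glutamate transporter of astrocytes, was read by 2 probes named for different RefSeq transcripts.
Slc38a8: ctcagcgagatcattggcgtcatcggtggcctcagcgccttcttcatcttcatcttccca
Slc2a7: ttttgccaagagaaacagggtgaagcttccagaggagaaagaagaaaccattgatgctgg
Slc2a8: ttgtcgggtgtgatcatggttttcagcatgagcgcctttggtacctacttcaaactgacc
Slc1a2, first probe: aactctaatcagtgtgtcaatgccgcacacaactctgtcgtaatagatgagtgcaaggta
Slc1a2, second probe: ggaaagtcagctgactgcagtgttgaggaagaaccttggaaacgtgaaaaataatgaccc

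In the rat build rn4, as the files give it, the Slc38a8 probe lies on the minus strand of chromosome 19 at 49729475 to 49729534. The Slc1a2 probes lie on the plus strand of chromosome 3, the first at 87988366 to 87988425 and the second at 87992261 to 87992320. The Slc2a8 probe, on the minus strand of chromosome 3, spans 504 bases from 11964987 to 11965490, longer than its own 60 bases, and 2 other probes of the set, 1 of Slc1a6 and 1 of Slc7a1, also span more genome than their length. The Slc2a7 probe has no genome position in the files, like 2 others of the 69, and its accession was not found in the gene table used here. Exons and untranslated regions were not assigned, since no annotation of rn4 was used. The GC content of the 69 probes ran from 28.3% to 55% with a median of 45%, the same median as over all 23919 measured probes. Over the 61 measured probes of these genes, Pearson's r between GC content and difference was -0.24, against 0.035 over all measured probes. This is a description across probes that share the same 2 arrays.

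The level of a gene was the log2 processed signal minus the log2 75th percentile of the non-control spots of its array, averaged over spots and then over measured probes. A gene counted as measured where over 50% of the spots of a probe were well above background on both arrays. Differences are log2, female minus male, and a fold value is the higher over the lower pool on a linear scale. Signals of different probes are not on 1 scale, so levels were compared between the pools and never between genes, and families were compared by their differences and by how many members were measured. The error given, called the technical SD, is the SD between spots of 1 probe over the root of how many spots there were. For a gene on single spots it was taken from repeated probes of like level. It holds nothing of the spread between rats, labelling reactions, hybridisations or the probes of a gene. Most of these genes (39 of the 53 measured) rested on 1 spot.

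Nearly the whole transporter set was measured in both pools, and 0 members reached a 1.5-fold difference in either direction. The names on the array include targets under a transcript name, and a gene with several probes, as 12 members had, needed only 1 of them measured. Of the 57 genes, 53 were measured in both pools (93.0%), against 78.5% of all 26328 gene and target names. Of the other four, 1 was measured in the female pool only, 1 in the male pool only and 2 in neither. All members of Slc1, Slc7 and Slc38 were measured, 10 of 12 of Slc2 and 12 of 14 of Slc16. Among all 20664 measured genes, a 1.5-fold difference or more favoured the female pool for 1.56% and the male pool for 0.842%, and a 2-fold difference or more for 0.508% and 0.339%. At such rates a set of 53 genes would hold few of them, so the count of 0 is near the background. In RNA of whole tissue, fewer cells of a type and less RNA per cell cannot be told apart.

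The 53 measured genes split evenly, 27 toward the female and 26 toward the male pool, with a median difference of 0.0035, beside 0.00012 over all genes. With spike-in controls as the scale the split was 21 to 32, and with normexp background correction 35 to 18, so small differences have no settled sign. Over the 11 alternatives tried, 38 of the 53 genes kept their sign wherever they were measured. Not every gene was measured in all 11, since the strict filter on dim probes kept 40 genes and leaving out the slide bands kept 42. Genes on a single spot in a band therefore could not be checked without the bands. The other 15 took the opposite sign in at least 1, namely Slc2a9, Slc2a10, Slc2a12, Slc7a1, Slc7a7, Slc7a15, Slc16a3, Slc16a4, Slc16a5, Slc16a6, Slc16a10, Slc16a14, Slc38a2, Slc38a4 and Slc38a7. A share of 86.8% of these genes lay within 1.2-fold, against 86.9% of all genes, and the median size of a difference was 0.12 against 0.092. Beyond 2 technical SD lay 16 of the 53 genes, 10 of them higher in the female and 6 in the male pool. That is 30.2%, beside 25.4% of all genes in either direction (14.2% toward the female and 11.2% toward the male pool). The transporter genes thus differed about as often as genes in general.

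**Figure D1:**
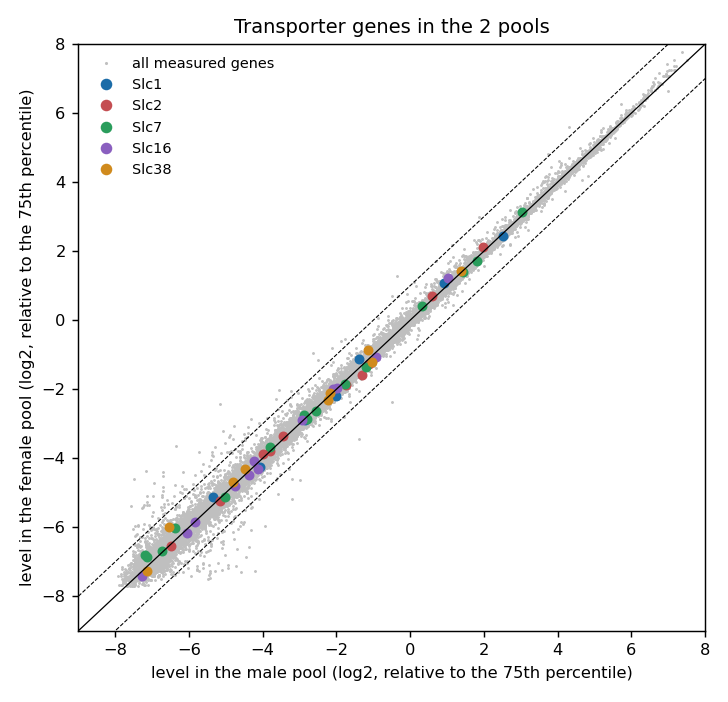
Level of each measured transporter gene in the male pool (x axis) and in the female pool (y axis), log2 relative to the 75th percentile of the array, coloured by family over all 20664 measured genes in grey. The solid line is equality and the dashed lines are 2-fold, and all 53 transporter genes lie between the dashed lines.

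Family medians were -0.019 for Slc1, -0.028 for Slc2, 0.052 for Slc7, -0.043 for Slc16 and 0.056 for Slc38. None of them exceeded the median technical SD of 1 gene, 0.072, and each took the other sign under at least 1 other scaling or filter, apart from Slc1. In the plain counts, 3 of 7 Slc1 genes, 5 of 10 Slc2, 8 of 15 Slc7, 5 of 12 Slc16 and 6 of 9 Slc38 genes were higher in the female pool. The widest range was that of Slc38, from -0.18 to 0.54, while all 12 measured Slc16 genes lay within 1.2-fold. Beyond 2 technical SD lay 3 of 7 genes in Slc1 (42.9%), 4 of 10 in Slc2 (40%) and 4 of 9 in Slc38 (44.4%). In Slc7 it was 3 of 15 (20%) and in Slc16 2 of 12 (16.7%), beside 25.4% of all genes. With families this small, 1 gene moves such a share a good deal.

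**Figure D2:**
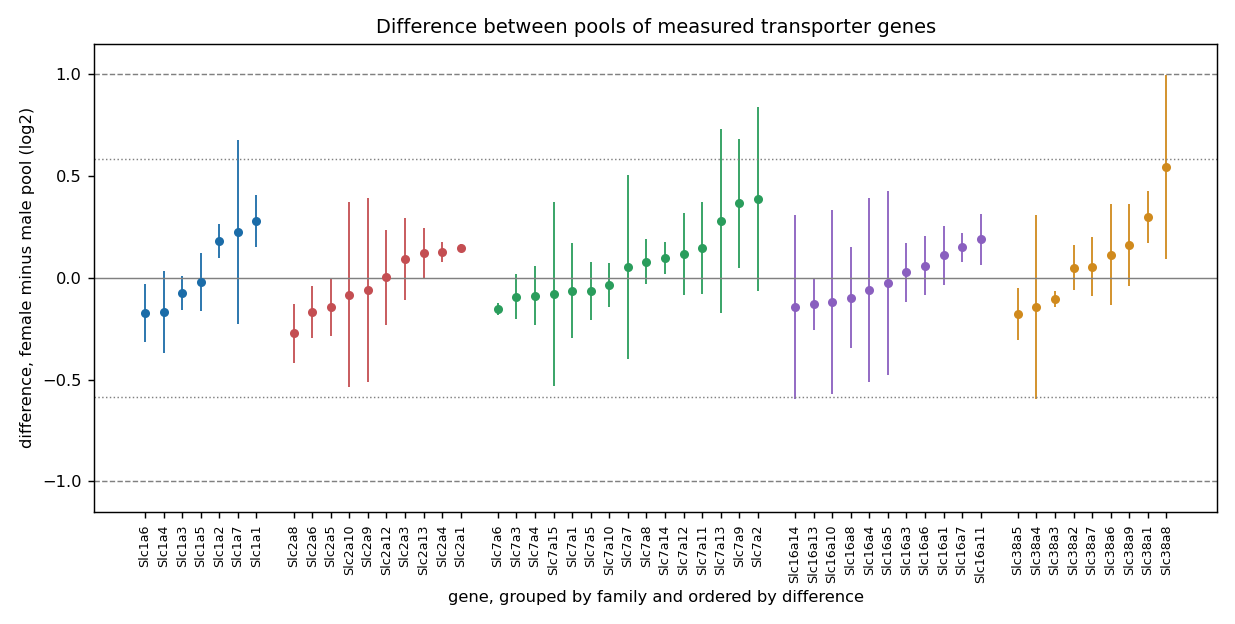
Difference between the female and male pool (log2, y axis) of 52 measured genes, grouped by family and ordered by difference. Bars are 2 technical SD, dotted lines 1.5-fold and dashed lines 2-fold, and every point lies between the dotted lines, with Slc38a8 the highest at 0.54 and Slc2a8 the lowest at -0.27.

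Parts of the slide were marked as bands because spots of repeated probes scattered there. A band is a run of bins of 20 slide rows in which over 2% of repeated spots departed from the median of their own probe by over 4 robust SD, which gave rows 81 to 180, 401 to 440 and 521 to 532. The share departing was 5.42% in the bands and 0.515% elsewhere, a contrast that this choice of rows fixes. Among the transporter genes 11 rested on a single spot in these bands, namely Slc1a1, Slc1a6, Slc2a13, Slc7a4, Slc7a8, Slc7a10, Slc7a12, Slc7a15, Slc16a4, Slc16a6 and Slc16a11. The 19 measured genes with any spot in a band had a median difference size of 0.12, and so did the 34 with none.

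Among the glutamate transporters, the neuronal Slc1a1 and the astrocytic Slc1a2 were higher in the female pool. Slc1a1 was at -1.40 in male RNA and -1.12 in female RNA, a difference of 0.28 (technical SD 0.064) from 1 spot in a band. Slc1a2 was at 0.90 and 1.08, a difference of 0.18 (technical SD 0.042). Its 2 probes had the same sign, 0.10 for the first and 0.26 for the second of the sequences shown. Slc1a3, the other astrocytic glutamate transporter, was at 2.51 in male RNA and 2.44 in female RNA, -0.075, with probes of -0.083 and -0.067 that differed by 0.017. The 2 carriers of 1 cell type therefore differed in sign, and only Slc1a2 lay beyond 2 technical SD. Slc1a6, best known from Purkinje cells, was at -2.02 and -2.20, -0.17 (technical SD 0.072), also on 1 spot in a band. Slc1a7, best known from retina, was at -5.34 and -5.12, a difference of 0.22 within 2 technical SD of 0.23, and its other probe had no spot well above background in either pool.

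Both neutral amino acid exchangers of the same family were lower in the female pool, neither beyond 2 technical SD. Slc1a4, a carrier of serine and alanine, was at -4.09 in male RNA and -4.26 in female RNA, -0.17 with a technical SD of 0.10. Slc1a5, which exchanges glutamine, was at -2.87 and -2.89, -0.019, inside its technical SD of 0.072.

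All 3 measured class I glucose transporters were slightly higher in the female pool, and 2 of them were read by probes spotted 10 times. Slc2a1, the carrier of the blood-brain barrier and of glia, ran from 1.84 to 2.02 with a median of 1.97 over 10 male spots. Over the 10 female spots it ran from 2.06 to 2.17 with a median of 2.10, so the spots of the 2 arrays did not overlap. All 10 spots were higher on the female array, by 0.15 ± 0.032 (SD over 10 spots), 1.11-fold. Such separation of spots was seen for 8.77% of the 1312 repeated probes on the array and for 2 of the 7 of these genes, Slc2a1 and Slc7a6. Scaled to the spike-in controls, the Slc2a1 spots overlapped (highest male 2.18, lowest female 2.15) and the difference was 0.072, still above 0 at all 10 spots. Slc2a4, the insulin-responsive carrier, ran from -4.13 to -3.75 on the male and from -3.94 to -3.74 on the female array, which overlap. Its difference was 0.13 ± 0.077 (SD, 10 spots), above 0 at all 10 spots. With median, quantile and spike-in scaling it was above 0 at 9, 8 and 6 of the 10 spots. How many of the 1312 repeated probes had all spots of 1 sign was not counted. Slc2a3, the main carrier of neurons, was at -3.46 and -3.37 on 1 spot, 0.092 with a technical SD of 0.10. These 3 genes differed by 1.07-fold to 1.11-fold, and their sign was the same in all 11 alternatives. Slc2a2, a low-affinity carrier linked to glucose sensing, had no spot well above background in either pool.

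Slc2a7 had the largest contrast between the arrays of all 57 genes. This class II relative of the fructose carriers, known mainly from intestine, had 1 spot, at slide row 426 inside a band. It was not well above background in the male pool, at -9.98, and well above it in the female pool, at -6.72. Set against -7.97, the dimmest measured level of the male array, the female level was 2.38-fold higher, a value called the bound here. The dimmest measured level is no upper limit for a spot that was not measured. No error was added either (technical SD 0.23 at this level), so the bound is not a firm minimum. Bounds of at least 2-fold were found for 35.8% of the 324 genes measured in the female pool only, so that bound is no mark of this gene. The other class II genes were slightly lower in the female pool, Slc2a9 only without normexp. Slc2a5, a fructose carrier found in microglia, was at -1.74 and -1.89, -0.14 (technical SD 0.072), and Slc2a9, a urate carrier, at -6.49 and -6.55, -0.059 (technical SD 0.23).

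In class III, Slc2a8, an intracellular glucose carrier, had the largest difference toward the male pool of all 53 genes. It was at -1.32 in male RNA and -1.59 in female RNA, -0.27 with a technical SD of 0.072, 1.21-fold, from 1 spot outside the bands. Slc2a6 was also higher in the male pool, at -1.11 against -1.28, -0.17 (technical SD 0.064). Slc2a13, the proton-linked inositol carrier, was at 0.58 and 0.70, 0.12 (technical SD 0.063). Slc2a10 differed by -0.082 with 1 of its 2 probes measured. The probes of Slc2a12 went opposite ways, -0.23 and 0.24, and their mean of 0.0035 describes neither.

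Among the cationic amino acid transporters, Slc7a2 had the largest difference, with low signal. Slc7a2 was at -7.20 in male RNA and -6.81 in female RNA, 0.39 with a technical SD of 0.23, 1.31-fold, which is within 2 technical SD. Slc7a3, the form best known from brain, was at 1.80 and 1.71, -0.092 (technical SD 0.055), and Slc7a4, a relative without known transport, at -1.76 and -1.84, -0.088. The probes of Slc7a1, the widespread arginine and lysine carrier, gave -0.20 and 0.070. Slc7a14, a brain-rich relative, was at 3.04 and 3.14, and its probes agreed at 0.092 and 0.10, beyond 2 technical SD of the gene mean, 0.040.

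The light chains of the heteromeric exchangers split into 6 higher in the female and 4 in the male pool, and Slc7a7 and Slc7a15 among them changed sign in 1 alternative each. Slc7a5, the large neutral amino acid carrier of the barrier, was at -2.79 and -2.86, -0.064 (technical SD 0.072). Slc7a8, its relative in neurons and glia, was at 0.33 and 0.41, 0.079 (technical SD 0.056). Slc7a6, which exchanges cationic for neutral amino acids, was lower in the female pool on repeated spots. Its 7 unflagged spots ran from -1.23 to -1.17 on the male and from -1.43 to -1.29 on the female array, without overlap. All 7 were lower on the female array, by -0.15 ± 0.039 (SD over spots), 1.11-fold. With the 3 flagged spots kept, all 10 were lower on the female array, but the ranges overlapped, from -1.36 to -1.14 on the male and from -2.04 to -1.25 on the female array. Slc7a7, its close relative, differed by 0.052 on 1 dim spot with a technical SD of 0.23.

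Slc7a10, which carries serine and glycine and is strong in astrocytes, was at 1.42 in male RNA and 1.39 in female RNA, -0.035 (technical SD 0.055). Its probe lies at 87711526 to 87711585 of chromosome 1 and is the reverse complement, over 58 bases, of the probe of Lrp3, which lies on the opposite strand at 87711528 to 87711587. The Lrp3 probe differed by 0.11. Slc7a11, the cystine and glutamate exchanger, had a probe of 10 spots with a difference of 0.058 ± 0.054 (SD), higher in the female pool at 9 of 10 spots. With spike-in scaling this probe was higher at 3 of 10 spots, with a difference of -0.016. The second probe of Slc7a11, on 1 dim spot, gave 0.23, and the gene mean was 0.15.

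Slc7a9, the cystine carrier of kidney, differed by 0.37 in the mean of 10 spots but varied most between them. Its spots ran from -6.98 to -5.61 on the male and from -6.19 to -5.82 on the female array. The difference at single spots ran from -0.47 to 1.01 with an SD of 0.50, and 8 of 10 were above 0. The SD of the level over spots was 0.45 on the male and 0.13 on the female array. Both negative differences were at slide rows 435 and 441, in or just after a band. Over the 6 spots outside the bands the mean was 0.55 ± 0.52. Its heavy chain gene Slc3a1 was at 0.076 in male RNA and 0.22 in female RNA, 0.14 (technical SD 0.056).

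Slc7a12, Slc7a13 and Slc7a15 are light chains known mainly from kidney. Slc7a12 was at -3.80 and -3.68, 0.12 (technical SD 0.10). Its probe shares a run of 24 bases on the same strand with the probe of LOC361914, also on chromosome 2, at 88620392 to 88620451.
Shared by Slc7a12 and LOC361914: AGAAGTAACTGCATAGGTAGCAGA
The capitals mark the identical run, which starts at base 7 of the Slc7a12 probe. LOC361914 was at 0.70 and 0.84, a difference of 0.14, and the Slc7a12 value is uncertain because of the shared run. No other probe of the set shared 20 bases with a probe of another gene. Slc7a13 was at -7.15 and -6.87, 0.28 with a technical SD of 0.23. One probe of Slc7a15 gave -0.080, and the other had its spot well above background only for male RNA, at -6.79 against -8.14.

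**Figure D3:**
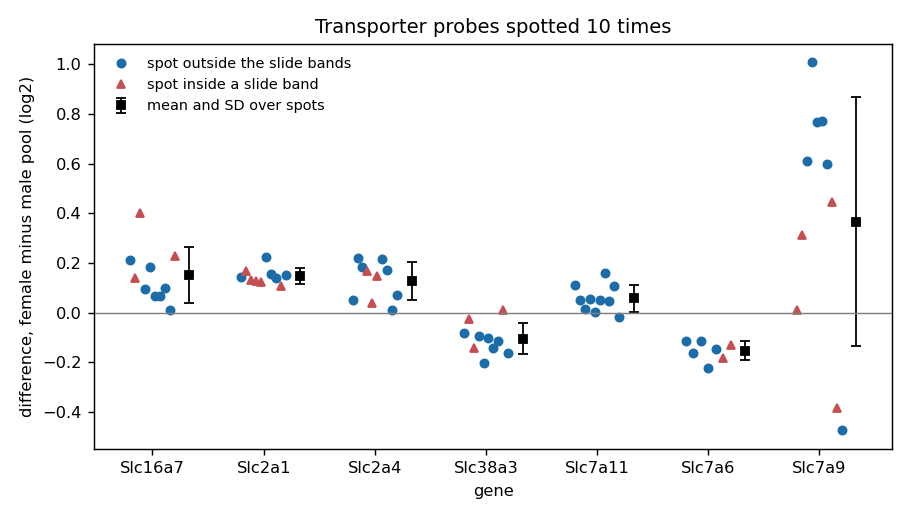
Difference between the female and male array at each unflagged spot of the 7 transporter probes spotted 10 times (log2, y axis), drawn in order of slide row, with triangles for spots inside the slide bands and squares with bars for the mean and SD over spots. All spots of Slc2a1, Slc2a4 and Slc16a7 lie above 0, all of Slc7a6 below 0, and those of Slc7a9 run from -0.47 to 1.01.

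The carriers of lactate and pyruvate were close in the 2 pools, with 3 of 4 higher in the female pool, of which Slc16a3 changed sign in 2 alternatives. Slc16a7, the high-affinity form of neurons, ran from -4.36 to -4.04 over 10 male spots and from -4.20 to -3.92 over 10 female spots, which overlap. It was higher on the female array at all 10 spots, by 0.15 ± 0.11 (SD), 1.11-fold, and by 0.10 ± 0.070 over the 7 spots outside the bands. With median, quantile and spike-in scaling it was higher at 9, 9 and 7 of the 10 spots. Slc16a1, the form of endothelium and glia, was at -2.10 and -1.99, 0.11 (technical SD 0.072), and Slc16a3, the form linked to lactate release, at -1.99 and -1.96, 0.028 (technical SD 0.072). Slc16a8, known from retinal pigment epithelium and choroid plexus, had probes of -0.30 and 0.10, and a mean of -0.098.

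Slc16a10, a carrier of aromatic amino acids, was at -6.06 in male RNA and -6.18 in female RNA, -0.12 (technical SD 0.23). It was within 2 technical SD and took the opposite sign under normexp.

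Of a further 8 Slc16 genes 6 were measured, from -0.14 to 0.19. Slc16a11 was the highest, at 1.04 in male RNA and 1.23 in female RNA, 0.19 (technical SD 0.063), on 1 spot in a band. Slc16a13, its neighbour on chromosome 10, was at -0.94 and -1.06, -0.13 (technical SD 0.064). Slc16a14, Slc16a4, Slc16a5 and Slc16a6 gave -0.14, -0.061, -0.024 and 0.060, none beyond 2 technical SD. Slc16a12, a creatine carrier, had its spot well above background only for male RNA, at -7.70 against -7.91. Its bound, made in the same way as for Slc2a7, was 1.01-fold. Of the 518 genes measured in the male pool only, 23.4% had a bound of at least 2-fold. Slc16a9 had no spot well above background in either pool.

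In the Slc38 family, both system N carriers were higher in the male pool, and 2 of 3 system A carriers in the female pool, of which Slc38a2 changed sign in 2 alternatives. Slc38a3, which releases glutamine from astrocytes, ran from -2.29 to -2.06 over 10 male spots and from -2.43 to -2.15 over 10 female spots, which overlap. Its difference was -0.11 ± 0.063 (SD), below 0 at 9 of 10 spots. Slc38a5, the other system N gene, was at -1.03 and -1.21, -0.18 (technical SD 0.064). Both kept that sign in all alternatives tried. Slc38a1, the system A carrier of neurons, was at -1.16 in male RNA and -0.86 in female RNA, 0.30 with a technical SD of 0.064, 1.23-fold, on 1 spot outside the bands. Slc38a2, the system A form that cells raise when short of amino acids, was at 1.38 and 1.43, 0.050 (technical SD 0.055). Slc38a4, the third, was dim, at -7.14 and -7.28, -0.14 (technical SD 0.23).

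Slc38a8, a carrier of glutamine and related amino acids known from retina, had the largest difference of all 53 genes. It was at -6.55 in male RNA and -6.00 in female RNA, 0.54 with a technical SD of 0.23, 1.46-fold, on 1 spot outside the bands. A difference of this size or smaller was found for 97.2% of all genes, and Slc38a8 stayed under 1.5-fold in all alternatives where it was measured. Slc38a9, a lysosomal carrier that senses arginine, was at -4.48 and -4.32, 0.16 (technical SD 0.10), and Slc38a7 at -2.17 and -2.12, 0.056. The probes of Slc38a6 gave -0.059 and 0.29.

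**Figure D4:**
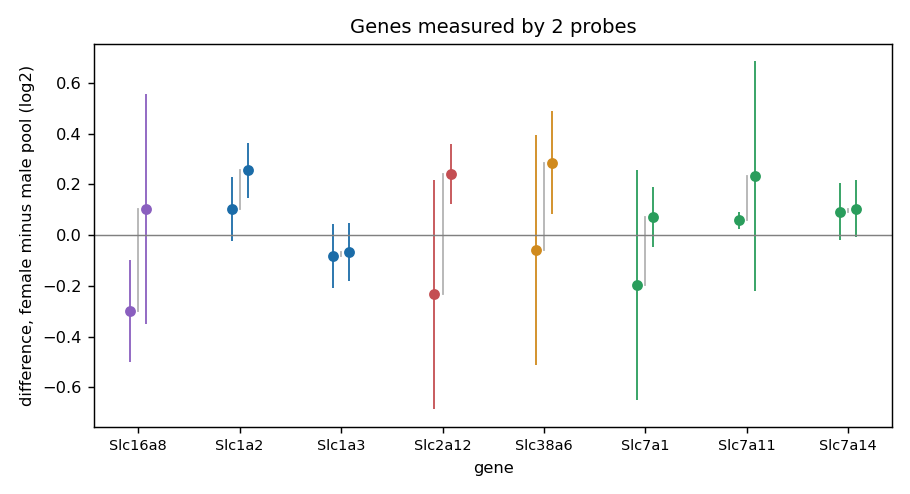
Difference between the pools (log2, y axis) at each probe of the 8 transporter genes with 2 measured probes, with bars of 2 technical SD. The probes lie on opposite sides of 0 for Slc16a8, Slc2a12, Slc38a6 and Slc7a1.

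Where a gene had 2 measured probes, these could differ by more than a typical gene differed between the pools. Of 8 such genes 4 had probes of opposite sign, with gaps of 0.27 (Slc7a1) to 0.47 (Slc2a12). The gaps of the other four were 0.012 for Slc7a14, 0.017 for Slc1a3, 0.15 for Slc1a2 and 0.17 for Slc7a11. The median difference size of all 53 genes, 0.12, is below 6 of these 8 gaps. The bars of 2 technical SD of the probes overlap for all 8 genes.

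Genes that work beside the transporters were as close between the pools. Of 35 listed heavy chains, chaperones, enzymes and related carriers 33 were measured, 17 higher in the female and 16 in the male pool, with a median of 0.0046 and 0 at 1.5-fold. Slc3a2, the heavy chain shared by most Slc7 light chains, differed by -0.027, and the Slc16 chaperones Bsg and Emb by -0.0036 and 0.033. Hk1, which traps glucose, differed by -0.036, and the lactate dehydrogenase genes Ldha and Ldhb by -0.084 and 0.068. In the glutamine cycle, the astrocytic synthetase gene Glul differed by -0.14 (technical SD 0.056, 1 spot in a band). Gad2, which makes the transmitter GABA, was at -0.24 in male RNA and 0.064 in female RNA, 0.30 (technical SD 0.056), while Gad1 differed by 0.021. The vesicular glutamate transporter gene Slc17a6 differed by -0.019 over 10 spots. Beyond 2 technical SD lay 9 of the 33 genes (27.3%), beside 25.4% of all genes.

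Markers of meninges and of blood cells differed more than the transporters, in 1 direction each. These lists were chosen with earlier results of these data known, so their common direction is a description and not an independent result. Over all genes, 10338 of 20664 were higher in the female pool. Female RNA held more of all 13 measured meningeal and fibroblast markers, by a median of 1.03 log2, and their summed level was 4.66 log2 in male RNA and 5.87 in female RNA. A summed level adds linear signals of probes that are not on 1 scale, so the brightest gene weighs most in it. In this list that was Ptgds, at 4.29 in male RNA and 5.59 in female RNA. Slc13a4 of that list was well above background in the female pool only. Choroid plexus markers were mixed, from -0.086 (Clic6 and Folr1) to 2.22 (Kcnj13), with 6 of 11 within 1.2-fold. Kcnj13 was dim, at -6.94 and -4.72, on 1 spot in a band (technical SD 0.23). Of the choroid plexus markers, 9 of 11 were higher in female RNA, with a median of 0.20 and summed levels of 1.59 and 2.26, and Cldn2 was not measured. The brightest of them was Ttr, at 0.11 and 1.09, also on 1 spot in a band. Male RNA held more of all 7 measured markers of blood cells, with a median difference of -0.46 and summed levels of 3.74 and 3.42, and Hbe1 and Epb42 were not measured. The brightest blood cell marker was Hbb, at 3.63 and 3.32. Of the pituitary markers 4 of 5 were lower in female RNA, among them Tshb by -2.05, Cga by -0.72 and Lhb by -0.022. The fourth, Pomc, is also a gene of hypothalamic neurons. Its -0.28 is the median of the list, and it holds most of the summed levels of 3.44 and 3.05. Prl was well above background in the female pool only, and Gh1 in neither. Their part in the values of the transporter genes was not tested.

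Markers of the cells that carry most of these transporters went both ways in every list, though most neuron and microglia markers leaned toward the female pool. Higher in the female pool were 5 of 6 neuron, 5 of 7 microglia and 4 of 6 tanycyte markers. So were 6 of 11 endothelial, 4 of 8 astrocyte and 3 of 8 oligodendrocyte markers. Endothelial markers had a median of 0.015, with all 11 within 1.2-fold, oligodendrocyte markers -0.029 with all 8, and neuron markers 0.062 with all 6. Astrocyte markers had a median of 0.0090 but ran from -0.24 (Gfap) to 0.35 (Slc4a4). Beyond 2 technical SD lay 5 of 8 (62.5%), beside 25.4% of all genes. The technical SD shrinks with more spots, and Gja1 passed at -0.069 with a technical SD of 0.023 from 8 spots. Aqp4 passed at 0.099 (technical SD 0.035), though its 3 probes ran from -0.22 to 0.38, a spread that the technical SD leaves out. The summed level of the astrocyte markers was 6.03 in male RNA and 6.01 in female RNA, led by Aldoc at 5.70 and 5.67. Microglia markers had a median of 0.053 and ran from -0.32 (Itgam) to 0.59 (Cd68), with 4 of 7 within 1.2-fold and summed levels of 2.52 and 2.69. Tanycyte markers had a median of 0.15 and ran from -0.31 (Rax) to 0.54 (Col25a1), with 4 of 6 within 1.2-fold and summed levels of 1.97 and 2.09. The part of these in the transporter values was not tested either. The hypothalamic genes Avp, Oxt, Pmch and Hcrt, picked with earlier results known, were all measured in both pools.

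**Figure D5:**
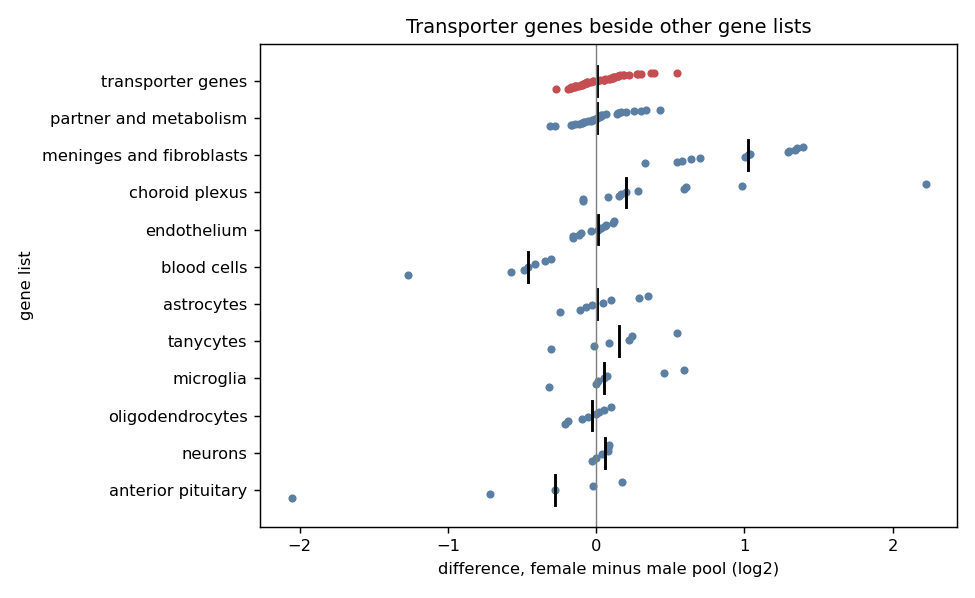
Differences between the pools (log2, x axis) of the 53 transporter genes (red) and of the measured genes of each other list (blue), 1 point per gene, with a black bar at each median. Transporter genes and their partners centre on 0, while the meningeal list has its median at 1.03 and the blood cell list at -0.46.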

How the data were processed

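Per the labels' protocols, RNA of 5 rats per sex was pooled, labelled with Cy3 and hybridised to 1 Agilent array per pool. The authors' deposited scanner files give processed signal intensity per spot, background-subtracted on a linear scale, with flags for outliers, saturation and signal well above background. Feature Extraction is version 10.7.3.1 per the file headers and 9.1 per the submitters' processing notes. The deposited value table holds the same intensity divided by a constant per array (37.7 and 29.4, the 75th percentile over 100) and was used as an alternative. The 75th percentile of signal was 3769 for male and 2943 for female RNA, 84.9% and 84.2% of non-control spots were well above background, and 0 were saturated.

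Spots flagged as outliers (286 and 292) were left out. Log2 levels relative to the 75th percentile were averaged over spots, then over measured probes of a gene name (Python 3.11.15, pandas 2.3.3). The normexp alternative was run in limma 3.58.1, and quantile normalization was computed in Python. With 1 array per group no p-value was computed, and the number of arrays limits the precision. The technical SD came from probes with at least 5 used spots, and for single spots from 10 bins of level. Gene names are those of the array, and 64 of 69 probe accessions led to the same symbol in the RefSeq table of assembly GRCr8, 0 to another, and 5 to none. The calculation was tested on simulated data, where 50 of 50 genes changed 1.5-fold had the right sign among 20664 genes. The simulation held independent noise per spot and no change below 1.5-fold. It therefore does not bear on the smaller differences of the 53 measured transporter genes. Transporter genes were named, with full values for those of 1.5-fold, measured in 1 pool only, read by repeated spots or several probes, extreme in their family, or well known in brain. Values of 2 genes, 1 of them a member, are not reported here, though they stay in the counts and medians. The members and lists were chosen with earlier results of these data known.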

Additional observations from a re-analysis of the deposited data

How the results depend on the processing

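Of 121 comparisons of 11 counts and medians with 11 alternatives (10 planned, and the median over spots of a probe, chosen after seeing the data), 106 stayed within 1.5 times the count or within 0.072 log2 of the median. That number is no measure of robustness. The deposited value table, kept outlier spots (3 among the members) and the median over spots could hardly move these results. A fall from 53 to 40 measured members also counted as staying. Without a filter on dim probes, 1 gene passed both 2-fold and 1.5-fold toward the female pool (Slc2a7) and 1 gene passed 1.5-fold toward the male pool (Slc7a15). Scaled to the spike-in controls, the median was -0.071 over all members, -0.094 for Slc1, -0.10 for Slc2, -0.023 for Slc7, -0.12 for Slc16 and -0.019 for Slc38, while the median of all genes was -0.075. With normexp it was 0.10 over all members, 0.13 for Slc2, 0.093 for Slc16 and 0.17 for Slc38, beside 0.052 over all genes. With levels above -5 only, it was 0.11 for Slc2 and -0.049 for Slc7, over 40 measured members. The cause was not tested. Over all 20664 measured genes, 105 passed 2-fold toward the female and 70 toward the male pool. With normexp these became 42 and 7 of 20664. The other settings also changed how many genes were counted. The counts were 49 and 20 of 15654 without the slide bands, 49 and 14 of 16493 with the strict filter, and 546 and 458 of 26328 without a filter. For normexp, 8 male and 2 female spots below local background were left out of the fit. Separation of repeated spots, checked under 4 settings chosen after seeing the data, was lost for Slc2a1 with spike-in scaling and for Slc7a6 with flagged spots kept, and kept for both with median scaling and quantile normalization. No paired analysis was possible because each group has 1 array, and no replicate could be left out.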

Other observations

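A further gene of these families is on the array under a transcript name instead of a symbol and so fell outside the rule. By its accession it is Slc38a10, a relative of the glutamine carriers. It was at -0.047 in male RNA and -0.11 in female RNA, a difference of -0.064 with a technical SD of 0.056, inside 2 technical SD.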
